A study of Rattus norvegicus with 99 samples.

Results

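The genes described here are 8 collagen chains of basement membranes and of other network-forming collagens, namely Col4a1, Col4a2, Col6a1, Col6a2, Col6a3, Col8a1, Col15a1 and Col18a1. They were picked out by gene symbol, and their levels were followed across all 21 groups of condition and heart chamber in rats with progressive pressure overload. Of the 8 genes, 5 had a row among the 17337 genes of the count table: Col4a1 (NCBI gene 290905), Col6a2 (361821), Col8a1 (304021), Col15a1 (298069) and Col18a1 (85251). Col4a2, Col6a1 and Col6a3 are not analysed here. All 5 genes with a row passed the filter on low counts in every fit.

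Poly(A) RNA was sequenced from whole tissue of the left ventricle (LV), septum (Spt) and right ventricle (RV) of 33 male F1 rats with Wistar Kyoto mothers and Lewis fathers, which gave 99 libraries. A clip that did not yet constrict was placed around the pulmonary artery (PAB, which comes to load the RV) or the ascending aorta (AOB, which comes to load the LV), and sham animals were operated on without banding. At the early stage, labelled H for hypertrophy, there were 7 Sham-H, 7 PAB-H and 7 AOB-H rats, aged 11 weeks and studied 7 weeks after surgery. At the late stage, labelled F for failure, there were 3 PAB-F and 2 Sham-RF rats aged 27 weeks (21 weeks after surgery), and 4 AOB-F and 3 Sham-LF rats aged 30 weeks (24 weeks after surgery). Ages are those of the sample labels, and the text of the study gives others. Each replicate is a separate animal that contributed all 3 chambers. The tissue is a mixture of all heart cells, so fewer cells of a type and less RNA per cell cannot be told apart in any value below.

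Every cardiomyocyte and every capillary of the heart is wrapped in a basement membrane, a sheet of type IV collagen and laminin networks held together by nidogen and perlecan. Col4a1 encodes the chain that assembles with the Col4a2 chain into the common type IV collagen. Col6a2 encodes a chain of type VI collagen, whose beaded filaments lie between the basement membrane and the interstitial matrix. Col15a1 and Col18a1 encode proteoglycan collagens of the basement membrane zone, and the tail of the Col18a1 chain is released as endostatin. Col8a1 encodes a short-chain collagen that forms lattices in vessel walls and is known to be made in injured or remodelling tissue.

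Promoter windows of RefSeq, in assembly GRCr8 and not in the older build used for counting, reach from 250 bases before to 50 bases after each gene start, and 7 of the 8 genes have one. Col4a1 is shown because its window overlaps that of its partner chain Col4a2, which is read in the opposite direction from a start 77 bases away. The capitals mark the 176 bases that both windows hold, and 75% of the Col4a1 window is G or C. Col8a1 is shown because it is the gene with the widest range of levels below, and the capitals in its window (62.7% G or C) mark 4 matches to the GC box GGGCGG on the other strand.
Col4a1, chr16:84885347-84885646, plus strand: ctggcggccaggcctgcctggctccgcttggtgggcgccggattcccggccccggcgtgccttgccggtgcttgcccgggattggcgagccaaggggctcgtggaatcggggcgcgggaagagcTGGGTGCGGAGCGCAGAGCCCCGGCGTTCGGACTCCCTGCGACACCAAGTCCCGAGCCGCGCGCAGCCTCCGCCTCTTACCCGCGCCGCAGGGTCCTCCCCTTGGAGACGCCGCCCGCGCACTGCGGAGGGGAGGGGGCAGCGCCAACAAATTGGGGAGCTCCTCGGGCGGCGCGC
Col8a1, chr11:56246532-56246831, plus strand: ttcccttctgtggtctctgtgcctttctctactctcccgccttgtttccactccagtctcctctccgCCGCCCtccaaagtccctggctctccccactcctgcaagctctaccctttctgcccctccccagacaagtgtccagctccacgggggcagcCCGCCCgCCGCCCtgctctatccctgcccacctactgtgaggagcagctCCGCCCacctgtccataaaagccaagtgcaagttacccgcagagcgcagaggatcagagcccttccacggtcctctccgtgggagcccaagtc
Searched on both strands, the GC box GGGCGG was matched in 33.1% of the 33469 windows of the rat table, with 3 matches for Col18a1, 2 for Col4a1 and Col4a2 each (in the shared stretch) and 0 for Col15a1, Col6a1 and Col6a3. The letters CCAAT were matched in 37.5% of all windows and in those of Col4a1 (2 matches) and Col4a2 (1 match). The AP-1 letters TGANTCA were matched in 7.33% of all windows and only in that of Col6a1 among the 7, and TATAAA and the TEAD letters CATTCC, each in 14.2% of all windows, in none of the 7. The letters of no motif contain those of another, and a match describes the sequence only.

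The libraries held 12.1 to 24.2 M counted reads (median 17.4 M). The lowest count of a described gene in any library was 58, for Col8a1, against 3171 for Col4a1. All 7 cardiomyocyte markers (Myh6, Tnnt2, Tnni3, Actn2, Ryr2, Pln and Myl2) and all 7 endothelial markers were detected in every library. For 3 animals (AOB-H 1, PAB-H 2 and Sham-H 6) the difference between RV and LV over the 50 genes that best separated the chambers in the other animals ran the opposite way, at -0.991 to -1.35 times the usual size, while the other 30 animals lay at 0.346 and above. That ranking of genes, by mean over SD, replaced a first ranking by the size of the difference, which put the same 3 animals and 3 more (-0.186, -0.0731 and -0.0644) below 0. The labels of the 3 animals were followed. Values without them are given for some comparisons only, where named, and all other values include them. The Spt library of Sham-H 5 stood apart with the lowest levels of its group for Col4a1, Col6a2 and Col15a1. Libraries were grouped into 3 library series, each a run of consecutive library numbers. In the LV and RV the early-stage libraries came from all 3 series and the late-stage libraries all from series 2. Stage and series are thus partly confounded. In the Spt the early-stage libraries came from series 2 and 3 and the late-stage libraries all from series 3. Differences between the Spt and a ventricle are therefore partly confounded with series as well. Col15a1 moved most with series: its median LV level in early-stage libraries was 14.4 FPKM in series 1, 23.1 in series 2 and 28.4 in series 3.

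Levels are given as FPKM, fragments per kilobase of transcript and per library size, a scale per length on which genes can be compared. Col4a1 had the highest level over the 99 libraries, with a median of 80.1 FPKM (range 39.5 to 129), followed by Col6a2 with 63.1 (34.3 to 98.8). Col15a1 had a median of 19.1 FPKM (6.79 to 31.8), Col18a1 of 8.19 (5.84 to 11.3) and Col8a1 of 4.97 (1.70 to 25.1). Col8a1 thus had the lowest median and the widest range relative to it. Ordered by group mean, Col8a1 ran from 2.58 FPKM in the RV of Sham-LF to 16.6 in the LV of AOB-F, a 6.42-fold span. The span was 2.44-fold for Col15a1 (9.93 in the RV of Sham-LF, 24.3 in the LV of Sham-H) and 2.42-fold for Col4a1 (42.1 in the RV of Sham-LF, 102 in the Spt of AOB-H). It was 1.73-fold for Col6a2 (46.2 in the Spt of AOB-F, 80.1 in the LV of Sham-H) and 1.32-fold for Col18a1 (7.18 in the Spt of Sham-LF, 9.49 in the LV of Sham-H). Neighbours in these orders mostly did not differ beyond their spread: of 20 neighbouring pairs of groups, the gap was smaller than the larger of the SDs in 20 for Col4a1, Col15a1 and Col18a1 each and in 19 for Col6a2 and Col8a1 each.

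In the 12 sham animals, 4 of the 5 collagens were lower in the RV than in the LV, namely Col4a1, Col6a2, Col8a1 and Col15a1. Over all genes tested, 4.37% were called lower in the RV (an adjusted p under 0.05 by the quasi-likelihood test of edgeR, which is the meaning of called throughout). Col4a1 ranged from 70.6 to 105 FPKM in the LV (median 82.6) and from 39.5 to 115 in the RV (median 60.9). The ranges overlapped, but within animals the RV lay below the LV in 11 of 12, the exception being Sham-H 6, as for Col8a1. The log2 difference was -0.49 ± 0.11 (SE, adjusted p = 0.00349) in the fit of all 99 libraries. That fit holds no term for the animal, so the 3 chambers of an animal count as separate libraries. It also gave the other p-values between chambers, except where the animal as a block is named. Without the 3 animals named above the Col4a1 difference was -0.58.

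Col8a1, the vessel wall collagen, had 3.45 to 7.81 FPKM in the LV of shams (median 5.55) and 1.81 to 6.21 in the RV (median 2.99). It had the largest chamber difference of the 5, at -0.85 ± 0.24 on the log2 scale (adjusted p = 0.0171, lower in 11 of 12 animals), and the call was lost when Sham-LF 1 was left out (adjusted p = 0.052). Col6a2 was lower in the RV in 12 of 12 animals, with -0.30 ± 0.08 (adjusted p = 0.0120). Its LV levels ranged from 57.6 to 98.8 FPKM and its RV levels from 43.8 to 76.3. Col15a1 was also lower in 12 of 12 animals, with -0.44 ± 0.14 (adjusted p = 0.0371), from an LV mean of 22.2 ± 4.6 to an RV mean of 16.8 ± 6.2 FPKM (SD, n = 12). That call was the least stable, since it was lost on leaving out any of 6 single animals (Sham-H 2 and each of the 5 late-stage shams, adjusted p from 0.0631 to 0.103).

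Col18a1 had about the same level in both ventricles, 8.87 ± 1.29 FPKM in the LV and 8.81 ± 1.29 in the RV (SD, n = 12), with a log2 difference of -0.01 ± 0.07 (adjusted p = 0.922) and a lower RV value in 7 of 12 animals. Counted over all 33 animals, whatever their surgery, the RV lay below the LV in 30 for Col6a2 and Col15a1 each and in 27 for Col4a1 and Col8a1 each, against 17 for Col18a1. With the animal as a block, all 4 calls between the ventricles remained (adjusted p from 0.00051 to 0.0459).

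**Figure D1:**
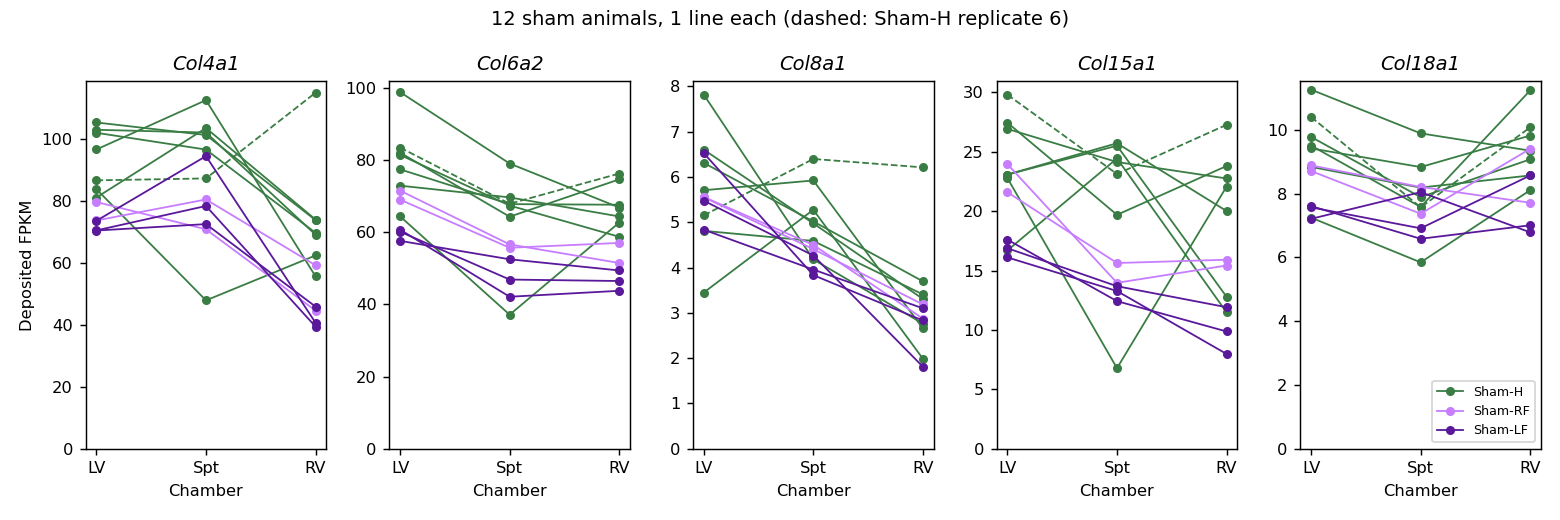
Level of each collagen (FPKM) in the LV, Spt and RV of the 12 sham animals, with the chambers of an animal joined. The RV lies below the LV in 11 of 12 animals for Col4a1 and Col8a1, in 12 of 12 for Col6a2 and Col15a1 and in 7 of 12 for Col18a1.

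The septum, the wall between both ventricles, did not take the same place for each gene. Col6a2 was lower in the Spt than in the LV (log2 difference -0.32 ± 0.08, adjusted p = 0.0168), with a mean of 58.9 ± 12.6 FPKM against 73.3 ± 12.0 (SD, n = 12). It was the only one of the 5 called in that direction, where 1.33% of all genes were, and the call was lost without Sham-LF 3 (adjusted p = 0.054). Col4a1 was higher in the Spt than in the RV (0.52 ± 0.11, adjusted p = 0.00115), and 3.71% of all genes were called higher there. For Col8a1 the Spt minus RV difference was 0.60 ± 0.24 (adjusted p = 0.125) with all animals, 0.72 (adjusted p = 0.0234) without the 3 animals, and 0.64 (adjusted p = 0.00158) with the animal as a block. In the late-stage shams the Spt libraries came from series 3 and those of the LV and RV from series 2. Some Sham-H animals also changed series between chambers. Spt differences cannot be separated from series here, also with the animal as a block.

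Other genes of the basement membrane were followed through the same comparisons. Of 11 listed laminins, nidogens and associated genes that were tested, Lama4, the laminin chain of vessels, was lower in the RV than in the LV (-0.21 ± 0.07, adjusted p = 0.0475), and no other passed. None of the 11 passed between Spt and LV. Their median log2 difference between RV and LV was -0.15, against -0.01 over all genes and -0.44 over the 5 collagens. Between Spt and RV, 3 of the 11 were higher in the Spt, namely Lama4, the nidogen Nid2 and the peroxidasin Pxdn, an enzyme that cross-links type IV collagen (0.43, adjusted p = 0.0087). Of the 8 fibrillar collagens tested, Col5a1 was lower (-0.42, adjusted p = 0.0344) and Col11a2 higher in the RV (0.71, adjusted p = 0.0271).

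Marker lists of cell types were set beside these differences. The summed level of the 7 cardiomyocyte markers had a median of 47760 FPKM in the sham LV (range 42900 to 63400). In the sham RV its median was higher, at 55170 FPKM (43540 to 70200). The summed level of the vessel mural markers Pdgfrb, Rgs5, Myh11, Cspg4, Kcnj8 and Notch3 had a median of 233 FPKM in the sham LV (range 111 to 306) and 156 in the RV (83.9 to 324), and 1 of the 6, Kcnj8, was called lower in the RV (-0.37). Of the 6 macrophage markers, all had negative RV minus LV values and 2 were called lower, Cd68 (-0.45) and Csf1r (-0.31), and their sum had a median of 246 FPKM in the LV (168 to 307) and 198 in the RV (171 to 275). The summed level of the 7 endothelial markers had medians of 419 FPKM in the LV (320 to 461) and 407 in the RV (293 to 487), and that of the 6 fibroblast markers 1378 (1078 to 1569) and 1285 (1011 to 1492). The 2 mesothelial markers with a row, which mark the outer heart surface, summed to a median of 4.62 FPKM in the LV and 16.8 in the RV. All 6 mural, 6 macrophage, 7 endothelial and 6 fibroblast markers were detected in all 99 libraries. Their part in the chamber differences was not tested.

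The 5 late-stage shams were compared with the 7 Sham-H to see how the genes differed between young and older hearts without banding. All 5 collagens had lower mean levels in the older shams in all 3 chambers, but none was called by edgeR in any chamber. Called genes made up 0.0171% of all genes tested in the LV, 1.18% in the Spt and 0.0937% in the RV. At an unadjusted p under 0.05 there were 3 of the 5 collagens in the LV, 2 in the Spt and 4 in the RV, where 6.85%, 18.5% and 11.7% of all genes were, and DESeq2 called 0, 1 (Col15a1) and 1 (Col4a1). The median log2 difference of the 5 was -0.34 in the LV, -0.31 in the Spt and -0.44 in the RV, against -0.01, -0.03 and -0.01 over all genes.

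Col4a1 had 73.8 and 79.8 FPKM in the LV of Sham-RF and 73.7, 70.6 and 70.6 in Sham-LF, against 81.2 to 105 in Sham-H (median 96.8). All 5 older libraries thus lay below all 7 young libraries, as they did for 0.538% of all genes, and the log2 difference was -0.36 ± 0.17 (adjusted p = 0.719). In the RV, Col4a1 had 59.3 and 44.7 FPKM in Sham-RF and 40.8, 39.5 and 46.0 in Sham-LF, against 55.8 to 115 in Sham-H, with 1 older library inside the young range. That difference was the largest of Col4a1, at -0.69 ± 0.17 (edgeR adjusted p = 0.127, DESeq2 0.0188), and -0.54 (edgeR adjusted p = 0.165) within series 2. The level of 115 came from Sham-H 6, whose ventricles differed the opposite way. With single animals left out, the difference ranged from -0.798 to -0.56 (edgeR adjusted p from 0.0592 to 0.49).

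Col6a2 in the RV had 57.1 and 51.5 FPKM in Sham-RF and 49.4, 46.5 and 43.8 in Sham-LF, against 58.8 to 76.3 in Sham-H. The groups did not overlap, which held in this direction for 0.384% of all genes, and the difference was -0.44 ± 0.12 (adjusted p = 0.194), or -0.43 (adjusted p = 0.175) within series 2. In the LV the difference of Col6a2 was -0.33 ± 0.11 (adjusted p = 0.391).

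Col15a1 in the Spt had 15.6 and 14.0 FPKM in Sham-RF and 12.4, 13.3 and 13.7 in Sham-LF, whereas 6 of the 7 Sham-H libraries had 19.7 to 25.7 and Sham-H 5 had 6.79. With all libraries the difference was -0.63 ± 0.19 (adjusted p = 0.084). Without Sham-H 5 it was -0.79 (adjusted p = 0.000232), and Col6a2 (-0.46, adjusted p = 0.0073) and Col4a1 (-0.34, adjusted p = 0.0395) were then called as well. In the RV the difference of Col15a1 was -0.74 ± 0.20 (adjusted p = 0.191), and -0.87 (adjusted p = 0.115) within series 2. Col8a1 differed least in the LV, with 5.59 ± 0.60 FPKM in the older shams (SD, n = 5) and 5.69 ± 1.40 in Sham-H (n = 7). Col18a1 had log2 differences of -0.25 ± 0.10 in the LV, -0.10 ± 0.11 in the Spt and -0.26 ± 0.10 in the RV, none called.

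Among the fibrillar collagens, the main fibres of the interstitial matrix, Col1a1 and Col3a1 were called lower in the older shams in the Spt (-0.89, adjusted p = 0.0210, and -1.04, adjusted p = 0.000334) and in the RV (-0.89, adjusted p = 0.0231, and -0.83, adjusted p = 0.0208). In the LV, Col1a1 was at -0.99 (adjusted p = 0.075). Of the 8 tested, 3 were lower in the Spt, 2 in the RV and 0 in the LV. None of the 11 listed laminins and other basement membrane genes was called, with 2, 2 and 4 at an unadjusted p under 0.05 in LV, Spt and RV and medians of -0.10, -0.02 and -0.18. The mural marker sum ranged from 181 to 276 FPKM in the LV of the older shams and from 111 to 306 in that of Sham-H, and from 116 to 157 and 83.9 to 324 in the RV. In the LV the atrial marker sum ranged from 18.8 to 63.8 FPKM in the older shams and from 35.8 to 3163 in Sham-H. All 4 atrial and both tested mesothelial markers had negative values there (medians -4.05 and -2.26). All 6 macrophage markers had positive values (median 0.271), and none of these 3 lists held a called gene. In the Spt, the 6 fibroblast markers all had negative values (5 at an unadjusted p under 0.05, median -0.33), with a median sum of 1139 FPKM in the older shams (885 to 1276) and 1296 in Sham-H (highest 1757). The 7 endothelial markers there all had positive values (3 at an unadjusted p under 0.05, median 0.30), with sums of 392 to 618 and 375 to 498 FPKM, and none of either list was called. The part of these cells in the collagen values was not tested.

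Upon banding, each group was compared with the sham group of its stage. None of the 5 collagens was called in any of the 12 comparisons by edgeR. Genes called were 0% of those tested in the 6 early-stage comparisons, the 3 PAB-F comparisons and the RV of AOB-F, 0.837% in the LV of AOB-F and 0.232% in its Spt. At an unadjusted p under 0.05 there were 1, 2 and 2 of the 5 collagens in the LV, Spt and RV of AOB-F, where 12.7%, 12.2% and 12.9% of all genes were. At that threshold there were 2 in the LV of PAB-H (4.72% of all genes) and of AOB-H (4.54%), 1 in the Spt of AOB-H (15.9%) and in the RV of PAB-H (1.26%), and 0 in the other 5 comparisons (0.937% to 8.37%). DESeq2 called Col8a1 in the LV (adjusted p = 0.0246) and Spt (adjusted p = 0.0224) of AOB-F and no other of the 5 in these 12 comparisons.

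**Figure D2:**
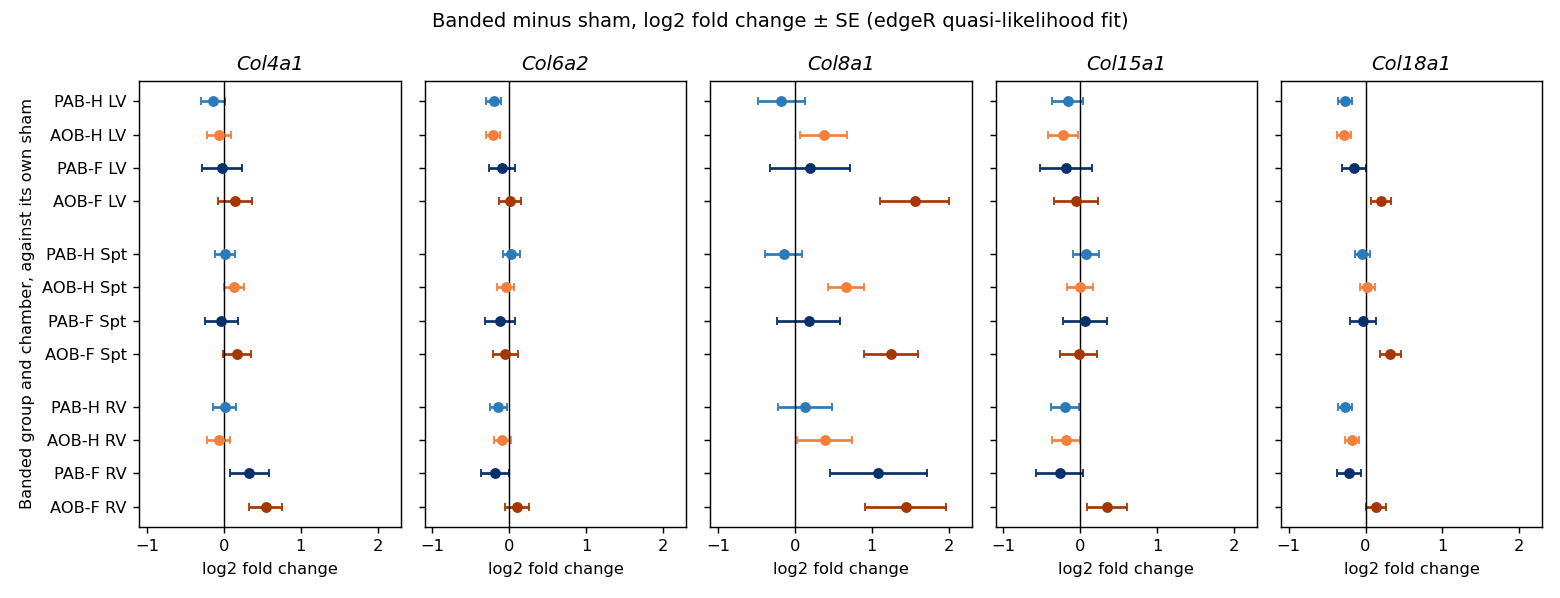
Log2 difference (edgeR, with its SE as bar) of each collagen between each banding group and its sham group, by chamber. The largest values are those of Col8a1 in AOB-F, 1.56 in the LV, 1.44 in the RV and 1.25 in the Spt, and no value passed the adjusted threshold.

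Col8a1 was the collagen that differed most in AOB-F. In the LV it had 23.1, 10.8, 7.31 and 25.1 FPKM in the 4 AOB-F rats and 5.47, 4.83 and 6.52 in the 3 Sham-LF rats. All 4 banded libraries lay above all 3 shams, which held for 5.67% of all genes in the LV, but the 4 spread widely, with AOB-F 1 and 4 far above the other two. The log2 difference was 1.56 ± 0.45 (unadjusted p = 0.0016, edgeR adjusted p = 0.083), with adjusted p from 0.0146 to 0.659 over the alternatives. Leaving out AOB-F 3 gave 1.81 (adjusted p = 0.0146) and leaving out AOB-F 2 gave 1.72 (adjusted p = 0.0477), whereas leaving out AOB-F 1 or AOB-F 4 gave 1.36 (adjusted p = 0.384) and 1.29 (adjusted p = 0.402).

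In the Spt, Col8a1 had 13.3, 6.38, 13.1 and 5.99 FPKM in AOB-F and 4.26, 3.95 and 3.83 in Sham-LF. The groups again did not overlap, as for 5.40% of all genes, and here AOB-F 1 and 3 were high. The difference was 1.25 ± 0.35 (edgeR adjusted p = 0.105, from 0.0130 to 0.453 over the alternatives), and it was called when AOB-F 4 was left out (1.44, adjusted p = 0.0271). In the RV, which AOB does not load directly, Col8a1 had 10.2, 2.56, 2.98 and 12.3 FPKM in AOB-F and 1.81, 3.10 and 2.83 in Sham-LF. Only AOB-F 1 and 4, the rats that were also high in the LV, lay above all shams, and the difference was 1.44 ± 0.53 (adjusted p = 0.347). The sample sheet of the study exchanges the Spt animals of AOB-F 1 and 2, so the Spt values cannot be tied to the ventricles of those rats with certainty.

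**Figure D3:**
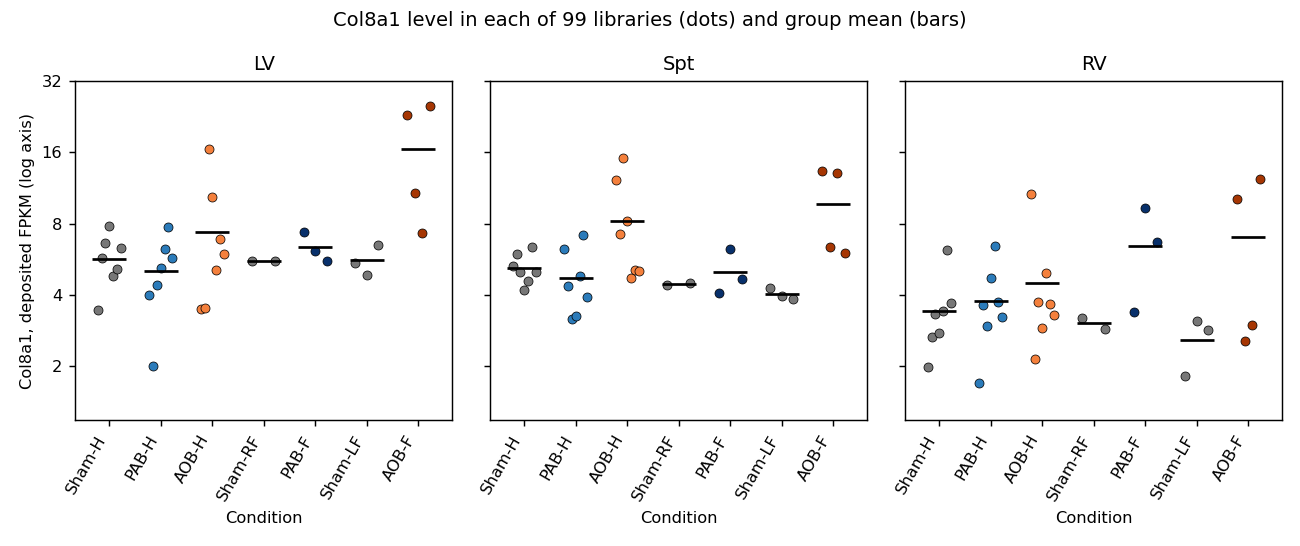
Col8a1 level (FPKM) in each of the 99 libraries by condition and chamber, with group means. The LV of AOB-F holds the highest libraries, 23.1 and 25.1, and in each chamber the AOB-F libraries fall apart into higher and lower ones.

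The high libraries were also those with a high sum of the activated fibroblast markers (Postn, Cthrc1, Fap and Comp, 4 genes all detected in all 99 libraries). Their summed level in the LV was 58.7, 14.0, 7.43 and 57.2 FPKM in AOB-F 1 to 4 and 5.78 to 6.80 in Sham-LF, so the 2 rats with the higher Col8a1 were the 2 with the higher sum. In the Spt the sum was 41.8, 11.6, 43.4 and 9.64 FPKM against 6.56 to 8.36, and in the RV 34.3, 6.62, 6.54 and 30.9 against 5.11 to 7.95. Postn, which encodes periostin, was called in the LV of AOB-F (3.42 ± 0.80, adjusted p = 0.0352). The high sums were mostly Postn. Its median in the LV of AOB-F was 28.0 FPKM, against 4.83 for Fap, 1.41 for Comp and 0.51 for Cthrc1. In Sham-LF the medians were 2.48, 2.97, 0.388 and 0.181 in the same order. The sum of 6 macrophage markers in the LV was 482, 337, 272 and 442 FPKM in AOB-F and 241 to 282 in Sham-LF. That of the mural markers was 143, 285, 250 and 134 FPKM in AOB-F and 181 to 276 in Sham-LF. AOB-F 1 and 4, with the higher Col8a1, thus lay below all shams in the mural sum, and AOB-F 2 lay above them. Other lists also differed in the LV of AOB-F, with no gene called. All 7 cardiomyocyte markers had negative values (3 at an unadjusted p under 0.05, median -0.208). All 4 adipocyte markers had positive values (3 at an unadjusted p under 0.05, median 3.78). The atrial marker sum ranged from 30.9 to 958 FPKM in AOB-F and from 22.5 to 63.8 in Sham-LF. The part of any of these cells in the Col8a1 levels was not tested.

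Over all 99 libraries, Col8a1 had a Spearman correlation of 0.591 with the activated fibroblast sum, and a Pearson correlation of 0.779 after group means were removed. The libraries share animals and groups, so both are descriptions. For the other 4 collagens the Spearman correlation with the same sum was 0.229 (Col4a1), 0.177 (Col18a1), -0.0599 (Col15a1) and -0.105 (Col6a2).

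**Figure D4:**
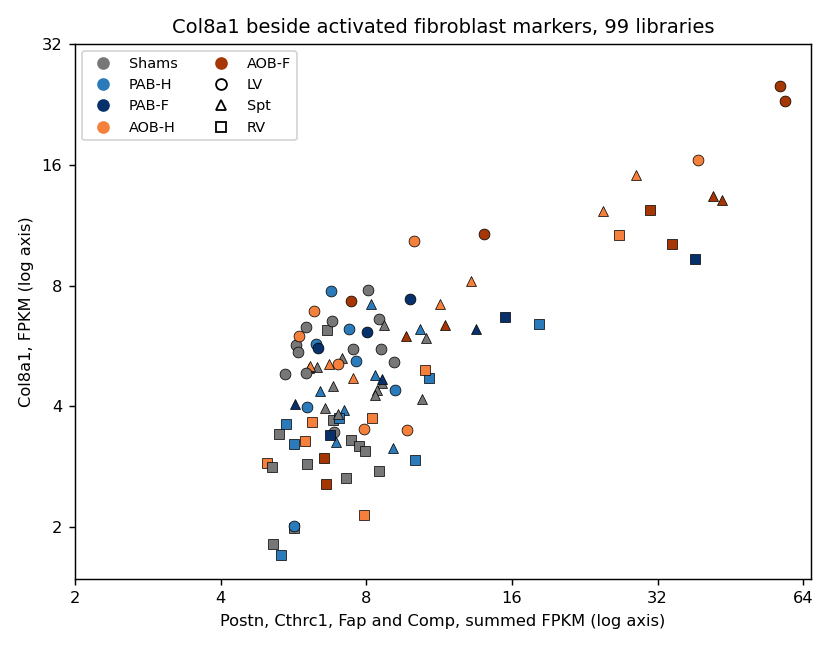
Col8a1 level against the summed level of 4 activated fibroblast markers (both FPKM, log axes), 1 point per library. Over the 99 libraries the Spearman correlation is 0.591, and the libraries with a sum above 30 FPKM include AOB-F 1 and 4 in the LV and RV. The high sums of AOB-F are mostly Postn.

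In the LV of AOB-F, Col4a1, the type IV collagen chain, had 70.6, 101, 82.2 and 61.2 FPKM against 73.7, 70.6 and 70.6 in Sham-LF, and the 2 banded rats with the highest Col8a1 had the lowest Col4a1. As a share of the Col4a1 level, Col8a1 was 32.7%, 10.7%, 8.89% and 41.1% in the LV of AOB-F 1 to 4, against 7.43%, 6.85% and 9.25% in Sham-LF. The Col4a1 difference was 0.14 in the LV and 0.17 in the Spt. In the RV, Col4a1 had 67.0, 60.8, 47.7 and 68.6 FPKM in AOB-F and 40.8, 39.5 and 46.0 in Sham-LF. The 2 rats with the highest Col8a1 had the highest Col4a1 there. These groups did not overlap, as for 4.64% of all genes, and the log2 difference was 0.54 ± 0.22 (adjusted p = 0.348).

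Of the proteoglycan collagens, Col18a1 had 9.05, 9.03, 7.72 and 8.33 FPKM in the LV of AOB-F, all above the 7.21, 7.61 and 7.57 of Sham-LF, as for the 5.67% of genes above, with a log2 difference of 0.20 ± 0.13 (adjusted p = 0.612). In the Spt its values were 9.43, 8.69, 10.9 and 7.54 against 8.04, 6.58 and 6.91, with 3 of 4 above all shams (0.32 ± 0.14, adjusted p = 0.328). Col15a1 differed by -0.06 in the LV, -0.02 in the Spt and 0.36 ± 0.26 in the RV. Col6a2 was the flattest, with differences of 0.01, -0.05 and 0.10 and means of 59.7 ± 8.7 FPKM in the LV of AOB-F (SD, n = 4) and 59.5 ± 1.7 in that of Sham-LF (n = 3).

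In the LV of AOB-F, Col14a1, a collagen that sits on the surface of fibrils, was called among the listed collagens, with 28.0 ± 8.8 FPKM (SD, n = 4) against 14.3 ± 2.3 (n = 3) and a log2 difference of 0.98 ± 0.24 (adjusted p = 0.0409). None of the 8 fibrillar collagens tested was called there, with 3 at an unadjusted p under 0.05 and a median of 0.38, and Col1a1 was at 0.88 (adjusted p = 0.099). None of the 11 basement membrane genes was called in any chamber of AOB-F, with 1, 1 and 3 at an unadjusted p under 0.05 in LV, Spt and RV. Their medians were 0.21, 0.11 and 0.21, against 0.01, -0.01 and 0.03 over all genes. None of the 17 procollagen-processing genes tested in the LV and none of the 10 matrix receptors tested was called in AOB-F, with 6 and 4 at an unadjusted p under 0.05 in the LV.

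In PAB-F, compared with only 2 Sham-RF rats, Col8a1 in the loaded RV had 3.39, 9.30 and 6.67 FPKM against 3.19 and 2.87. All 3 banded libraries lay above both shams, but so they did for 16.7% of all genes, and the lowest was close to the shams. The log2 difference was 1.09 ± 0.63 (adjusted p = 0.643). The activated fibroblast sum in the same libraries was 6.72, 38.3 and 15.5 FPKM against 7.73 and 6.02. Among the 3 PAB-F rats it had the same order as Col8a1, but the sum of PAB-F 1 lay between those of the 2 shams. The sum of 4 atrial markers reached 3413 FPKM in PAB-F 3. Their part was not tested. In the LV, Col8a1 had 7.39, 6.12 and 5.58 FPKM in PAB-F against 5.55 and 5.56 (no overlap, as for 8.02% of all genes), a difference of 0.19 ± 0.52.

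Col4a1 in the RV of PAB-F had 69.2, 75.8 and 52.1 FPKM against 59.3 and 44.7 in Sham-RF (0.33 ± 0.26). Col15a1 had 13.5, 13.1 and 12.6 FPKM there, all below the 15.9 and 15.4 of the shams, as for 18.6% of all genes, with a difference of -0.27 ± 0.31. Col6a2 was below both shams in all 3 PAB-F libraries of the Spt (50.4, 50.2 and 53.4 FPKM against 55.7 and 56.6), as were 21.6% of all genes there. Col18a1 in the RV differed by -0.22. With 3 animals against 2, non-overlap was frequent for all genes and these orders are descriptions.

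At the early stage the largest difference was that of Col8a1 in the Spt of AOB-H. Its level ranged from 4.71 to 15.1 FPKM (median 7.20) against 4.18 to 6.4 (median 5.02) in Sham-H, and 4 of the 7 banded libraries lay above all shams. The log2 difference was 0.67 ± 0.23 (unadjusted p = 0.0076, adjusted p = 0.235). In the LV, AOB-H ranged from 3.49 to 16.4 FPKM (median 5.97) and Sham-H from 3.45 to 7.81, a difference of 0.38 ± 0.30. The highest LV library, AOB-H 3, also had an activated fibroblast sum of 38.8 FPKM, against 5.44 to 9.15 in Sham-H. In the RV the difference of 0.39 ± 0.35 rested on AOB-H 1, one of the animals with the opposite ventricle difference, at 10.7 FPKM, and was -0.0017 without it.

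Col18a1 had negative early-stage values in both ventricles upon both kinds of banding, loaded or not, and none passed the test. In the LV it had 9.49 ± 1.26 FPKM in Sham-H, 7.94 ± 1.16 in PAB-H and 7.82 ± 0.83 in AOB-H (SD, n = 7 each), with differences of -0.26 ± 0.09 (adjusted p = 0.957) and -0.28 ± 0.09 (adjusted p = 0.900). In the RV it had 9.46 ± 1.04 FPKM in Sham-H, 7.85 ± 0.98 in PAB-H and 8.28 ± 0.58 in AOB-H, with -0.26 ± 0.09 (adjusted p = 1.000) for PAB-H and -0.18 ± 0.09 for AOB-H. The PAB-H and AOB-H values share the same 7 Sham-H libraries and are not separate evidence. Col6a2 in the LV differed by -0.21 ± 0.10 in both banding groups, from 80.1 ± 10.6 FPKM in Sham-H. Col4a1 and Col15a1 in PAB-H and AOB-H did not differ beyond the spread between animals at an unadjusted p under 0.05 in any chamber.

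Whether the responses differed between stages or chambers was tested directly, and none of the 5 collagens and 0% of all genes were called in any of these 4 interactions. For Col8a1 in the LV, the AOB difference was 1.19 ± 0.53 larger at the late stage than at the early stage (adjusted p = 0.607). For Col18a1 in the LV the change of the AOB difference was 0.48 ± 0.16 (unadjusted p = 0.0053, adjusted p = 0.462), from -0.28 in AOB-H to 0.20 in AOB-F. The PAB difference of Col8a1 in the RV was 0.95 ± 0.71 larger at the late stage. Between chambers, the AOB-F difference of Col8a1 was 0.12 ± 0.64 larger in the LV than in the RV, and the PAB-F difference 0.90 ± 0.76 larger in the RV than in the LV. Intervals of this width show neither a difference between the ventricles nor its absence.

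Across the 99 libraries, the collagens fell into different company. Ranked by Spearman correlation over genes with a mean of at least 1 CPM (counts scaled to equal library totals), the genes most like Col4a1 were Sdc3 (0.861), Pxdn (0.855) and Tspan14 (0.843). Those most like Col6a2 were the procollagen protease Adamts2 (0.801), Col15a1 (0.798) and Col3a1 (0.737). After group means were removed, their Pearson correlations with Col6a2 were 0.672, 0.658 and 0.417. For the genes named here with the other collagens, these within-group values ran from 0.544 to 0.897. Col15a1 itself was most like the fibril-forming Col5a1 (0.853), Nrep (0.851) and Angptl2 (0.850), and Col18a1 most like Ssc5d (0.669), Col16a1 (0.614) and C1qtnf6 (0.608). For Col8a1 they were Rab31 (0.846), Sptlc2 (0.839) and Diaph1 (0.825), none of them a collagen, which also held for Col4a1. Among the 5 themselves the closest pair was Col6a2 and Col15a1 (0.798), then Col4a1 and Col15a1 (0.705) and Col4a1 and Col6a2 (0.618). Col8a1 was at 0.584 with Col4a1 (within groups, a Pearson correlation of 0.541), 0.300 with Col15a1, 0.291 with Col18a1 and 0.216 with Col6a2. All libraries of an animal and of a series enter these values, which are descriptions over shared samples.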

How the data were processed

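Poly(A) RNA of whole heart tissue from 33 rats (LV, Spt and RV each) was sequenced as 75-bp single-end reads. According to the methods of the study, the authors trimmed reads with Trim Galore, aligned them to Rnor6.0 with STAR, all within nf-core/RNA-seq, and counted reads per UCSC gene with featureCounts with multiple overlaps disabled. Strand use in counting is not given in the sources used here. The deposited table holds raw counts, normalized counts (a signal that is the count divided by 1 size factor per library) and FPKM values, which are the authors' normalized counts divided by 1 constant per gene. FPKM is printed as level, and all tests used the counts.

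The members and gene lists were chosen with earlier results of these data known. Groups came from titles and source names of the labels. For RV libraries, a tissue tag that says left ventricle was not followed. Counts were fitted with edgeR 4.0.16 (R 4.3.3, limma 3.58.1): TMM factors, filterByExpr, glmQLFit and glmQLFTest, and Benjamini-Hochberg adjustment over all genes tested (11703 in LV, 11624 in Spt, 11734 in RV). Each chamber was 1 fit of 33 libraries in 7 conditions. Chamber differences and chamber interactions came from 1 fit of 99 libraries (11924 genes) with no term for the animal. The older shams are Sham-RF and Sham-LF weighted by their number of animals. Members are named in each comparison, and from the other lists the genes called or those with the lowest p. Alternatives were DESeq2 1.42.0, other filters and normalization, library series, animals left out and replicate blocks. Chambers of an animal are paired by the animal, and LV and RV deviations correlated above 0.1 in 29 of 33 animals. Libraries of equal replicate number in AOB-H and Sham-H of the RV correlated above 0.1 in 7 of 7 pairs (range 0.122 to 0.918), but numbers there also follow library series. Of these 7 AOB-H libraries, 2 correlated best with the Sham-H library of the same number. Replicate numbers were therefore not taken as pairs in the main fits. Totals ranged from 12.1 to 24.2 M counts. No 2 libraries held the same counts. The scripts were tested on simulated data.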

Additional observations from a re-analysis of the deposited data

Results flagged for a closer look

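In groups of 4 to 7 animals, 6 of the 60 combinations of collagen and group held an outlying library. Its distance from its nearest neighbour was large for the range of the group (Dixon's test). For a single combination, chance gives about 1 in 20. The collagens were read in the same libraries and correlate, so the 60 are not independent and the 6 cannot be set against that rate. Of the 6, 3 came from the Spt of Sham-H 5, which had the lowest level of its group for Col4a1 (48.0 FPKM, next 87.4), Col6a2 (37.2 FPKM, next 64.3) and Col15a1 (6.79 FPKM, next 19.7). The other 3 came from the animals whose RV and LV differed the opposite way from the rest. Col4a1 was lowest in the LV of PAB-H 2 (44.3 FPKM, next 78.9) and highest in the RV of Sham-H 6 (115 FPKM, next 74.1), and Col6a2 was highest in the RV of AOB-H 1 (86.1 FPKM, next 64.4).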

How the results depend on the processing

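The 4 calls of Col4a1, Col6a2, Col8a1 and Col15a1 between RV and LV of shams held under each planned setting other than leaving out single animals, where the number of collagens called ranged from 2 (without Sham-LF 1) to 4. The number called between Spt and LV ranged from 0 (without Sham-LF 3) to 1. Between Spt and RV, 2 collagens were called without the 3 animals of opposite ventricle difference, and with the animal as replicate block (2), also in a block fit without Sham-H 6 that was added after seeing the data (2). In the LV of AOB-F, 1 collagen (Col8a1) was called by DESeq2 and with library series as covariate, and 0 to 1 with animals left out. In the Spt of AOB-F, 1 was called by DESeq2 and 1 in the fit with equal replicate numbers as replicate block, and 0 to 1 with animals left out. These Spt libraries share only a number (2 of 3 pairs above 0.1). The replicate block gave a log2 difference for Col8a1 of 1.15 (adjusted p = 0.659) in the LV and 1.38 (adjusted p = 0.0130) in the Spt, and changed no other call of the 5 collagens upon banding. In the older shams, DESeq2 called 1 in the Spt and 1 in the RV, series 3 alone called 2 in the Spt, series as covariate called 1 in the RV, and leaving out animals gave 0 to 3 in the Spt (3 without Sham-H 5). The sign changed in 108 of 2180 alternative differences, 101 of them for differences below 1 SE, which are not listed. The other 7, all of uncalled values, were Col6a2 in PAB-H LV with series 3 only (0.028), Col8a1 in AOB-H LV with series 1 only (-0.37), Col6a2 (0.080) and Col15a1 (0.15) in PAB-H RV with series 1 only, Col15a1 in AOB-H RV with series 1 only (0.22), and Col8a1 in AOB-H RV with series 3 only (-0.52) and without AOB-H 1 (range over animals left out -0.0017 to 0.59). The cause was not tested. Levels from TMM library sizes moved by more than 1 SD in 1 of 105 groups. Late-stage groups hold 2 to 4 animals. The lowest count of Col8a1 in any library was 58, the lowest among the 5 genes.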

Other observations

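Early-stage LV and RV libraries of different library series differed in the level of several collagens with conditions mixed. The median of Col8a1 in the LV was 3.50 FPKM in series 1, 6.22 in series 2 and 6.14 in series 3, and that of Col4a1 was 72.7, 95.4 and 102 FPKM. In the RV, Col15a1 had medians of 12.2, 20.2 and 20.9 FPKM. Each early-stage condition holds the same number of libraries of each series, whereas no late-stage library of either ventricle came from series 1 or 3.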
